A study of Mus musculus with 4 samples.

Results

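The interferon-stimulated genes described here are 33 mouse genes that cells switch on when an interferon reaches them. They were chosen by name, with earlier results of these data known. Each of the 33 symbols matched 1 row among the 32285 genes of the count matrices. They comprise 4 transcription factors of the pathway (Irf7, Irf9, Irf1, Stat2), 4 Ifit genes, 5 antiviral genes that act on RNA or nucleotides (Oasl2, Oas1a, Oas2, Eif2ak2, Rsad2), the ubiquitin-like modifier Isg15 with its protease Usp18, and 3 membrane proteins (Ifitm2, Ifitm3, Bst2). The remaining members are Ifi27 and Ifi27l2a, 6 interferon-inducible GTPases (Gbp2, Gbp3, Gbp6, Gbp7, Igtp, Irgm1) and 7 further genes (Rtp4, Xaf1, Parp14, Ifi44, Lgals3bp, Trim30a, Sp100).

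The data are spatial transcriptomes of 10 µm fresh-frozen brain sections, made with the Visium assay, in which barcoded spots on a slide capture the RNA of the tissue above them and each captured molecule is counted once through its unique molecular identifier (UMI). A spot covers a small region that can hold several cells of different types. There were 4 libraries. The 2 control libraries came from Pdcd10fl/fl mice and the 2 knockout libraries from Slco1c1-iCreERT2;Pdcd10fl/fl mice. Slco1c1-iCreERT2 is a Cre recombinase driven by the Slco1c1 promoter and active only after tamoxifen, so Pdcd10, a gene whose loss causes cerebral cavernous malformations (clusters of dilated, leaky brain vessels), is deleted in cells where that promoter is active, chiefly brain endothelial cells and also choroid plexus epithelium. The floxed allele is carried by both groups. According to the study's design text, 50 µg of 4-hydroxytamoxifen was given into the stomach on postnatal day 1 and brains were taken at postnatal day 65. The labels disagree on oxygen. All titles read normoxia, the treatment field reads Hypoxia for both knockouts and Normoxia for both controls, and a protocol shared by all 4 libraries names 12% oxygen over 2 days. If the treatment field is right, oxygen and genotype cannot be told apart in any comparison between the groups. The labels do not state whether a group's libraries stem from different animals. The p-values of comparisons between the groups therefore gauge the spread among these libraries, which could be technical. Those of comparisons between spots within a group rest on its 2 libraries alone.

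Interferons are secreted proteins. Type I interferons bind the receptor pair Ifnar1 and Ifnar2, which activates the kinases Jak1 and Tyk2. These kinases activate a transcription factor complex that holds Stat2 and Irf9 and binds the interferon-stimulated response element (ISRE) upstream of their target genes. Type II interferon (Ifng) acts through Ifngr1 and Ifngr2, and many of its target genes carry the gamma-activated site (GAS). In the brain, microglia, astrocytes and endothelial cells all carry these receptors and can express the target genes.

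Promoter sequences show how far the members share these elements. RefSeq promoter entries (assembly GRCm38.p6, 250 bases upstream of the start) were matched for 26 of the 33 members, and those of Oas2, Usp18, Ifi27, Ifi27l2a, Gbp6, Rtp4 and Parp14 were not matched. The motifs are textbook consensus forms, not taken from these data. The ISRE was searched as GAAANNGAAA and its reverse complement TTTCNNTTTC, and the GAS as TTCNNNGAA, which is its own reverse complement. An ISRE match lay in 15 of the 26 promoters (57.7%), against 3.04% of the 17492 protein-coding promoters of the table. A GAS match lay in 7 of the 26 (26.9%), against 6.65% of all. Both were found in 4 members and neither in 8, and in 1 promoter the motifs overlapped (Bst2). All 5 matched GTPase genes and 3 of 4 Ifit genes held an ISRE match. The following 5 windows of 120 bases, which end at the base before the start site, are shown because they include promoters with repeated ISRE matches, a single one, a GAS match alone and both motifs, with motif letters in capitals.

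Isg15, chr4:156200819-156200938, minus strand, overlapping ISRE matches that begin 78, 72 and 66 bases upstream of the start: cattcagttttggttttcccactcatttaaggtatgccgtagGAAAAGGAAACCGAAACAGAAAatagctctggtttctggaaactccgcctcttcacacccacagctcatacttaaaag
Ifit1, chr19:34640769-34640888, plus strand, ISRE matches that begin 104 and 85 bases upstream: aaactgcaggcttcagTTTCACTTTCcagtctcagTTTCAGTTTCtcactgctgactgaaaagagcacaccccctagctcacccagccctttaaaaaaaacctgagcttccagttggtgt
Gbp2, chr3:142620543-142620662, plus strand, 1 ISRE match that begins 59 bases upstream: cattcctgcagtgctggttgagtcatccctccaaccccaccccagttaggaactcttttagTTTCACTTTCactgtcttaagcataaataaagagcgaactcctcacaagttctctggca
Irf1, chr11:53769894-53770013, plus strand, 1 GAS match that begins 90 bases upstream and no ISRE match: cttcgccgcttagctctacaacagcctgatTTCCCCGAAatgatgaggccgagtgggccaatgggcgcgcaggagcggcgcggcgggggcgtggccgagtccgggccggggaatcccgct
Igtp, chr11:58199436-58199555, plus strand, 1 GAS match that begins 45 bases upstream and 1 ISRE match that begins 34 bases upstream: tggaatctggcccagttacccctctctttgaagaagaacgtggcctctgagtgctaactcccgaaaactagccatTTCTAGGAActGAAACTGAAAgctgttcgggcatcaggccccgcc

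The 4 libraries held 50148764 to 74467027 UMIs each. Of the 4992 spots of each slide area, 2931 to 4599 had at least 1000 UMIs and were summed into 1 profile per library, and 2267 to 3468 had at least 5000 and were used for the spread over spots. Each library's barcodes are the same 4992, since these are the fixed spots of the slide, and the positions of spots and the section images were not used. Pdcd10 itself was at 89.8 and 79.1 CPM (UMIs per 1000000 of the library) in the controls and at 81.4 and 86.2 CPM in the knockouts. All cells of a section contribute to that value and where the captured ends lie relative to the deleted part was not tested, so it does not check the labels. Excitatory neuron transcripts, which mark brain tissue, summed to 1449 to 1555 CPM over the 4 libraries. The sections differed in composition: oligodendrocyte transcripts summed to 8723 and 12590 CPM in controls versus 5131 and 3643 CPM in the knockouts, and choroid plexus transcripts to 130 and 52.7 CPM against 8.72 and 10.7 CPM.

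Every member was higher in the knockouts. Summed over the 33 genes, the level was 193 CPM in each control and 463 and 487 CPM in the knockouts. All 33 passed the low-count filter and the quasi-likelihood test of edgeR (Benjamini-Hochberg adjusted p under 0.05), against 20.1% of the 17546 genes tested that were called higher and 18.3% called lower. The list was chosen with earlier results of these data known, so this count does not stand as an independent result. The median log2 fold change was 1.60, and the values ran from 0.40 for Stat2 to 3.40 for Rsad2. In all 33, both knockouts lay above both controls, which held for 36.6% of all genes tested. In sections summed in this way, a higher level cannot be told apart from more cells that express the gene. Some marker lists of other cells had higher sums as well: the summed phagocyte list (16 genes) was at 532 and 621 CPM in controls versus 1068 and 1019 CPM in the knockouts, the reactive astrocyte list (22 genes) at 285 and 288 against 1716 and 1650 CPM, and the endothelial list (14 genes) at 205 and 220 against 471 and 433 CPM. Activated phagocyte genes were at 48.5 and 50.7 against 299 and 327 CPM (8 of 10 called higher, 0 lower). Border macrophage and monocyte genes were at 12.6 and 15.9 against 47.2 and 50.9 CPM (6 of 11 tested higher, 0 lower). Neutrophil genes were at 10.6 and 8.54 against 41.8 and 42.1 CPM (7 of 9 tested higher, 1 lower). Others had lower sums: homeostatic microglia genes were at 153 and 179 against 87.6 and 86.6 CPM (8 of 9 called lower), leptomeninges genes at 305 and 303 against 221 and 259 CPM (8 of 12 lower), oligodendrocyte precursor genes at 360 and 442 against 270 and 234 CPM (5 of 8 lower) and lymphocyte genes at 40.6 and 41.3 against 25.4 and 20.7 CPM (3 of 10 tested lower, 1 higher). Their part in the whole-section change was not tested.

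**Figure D1:**
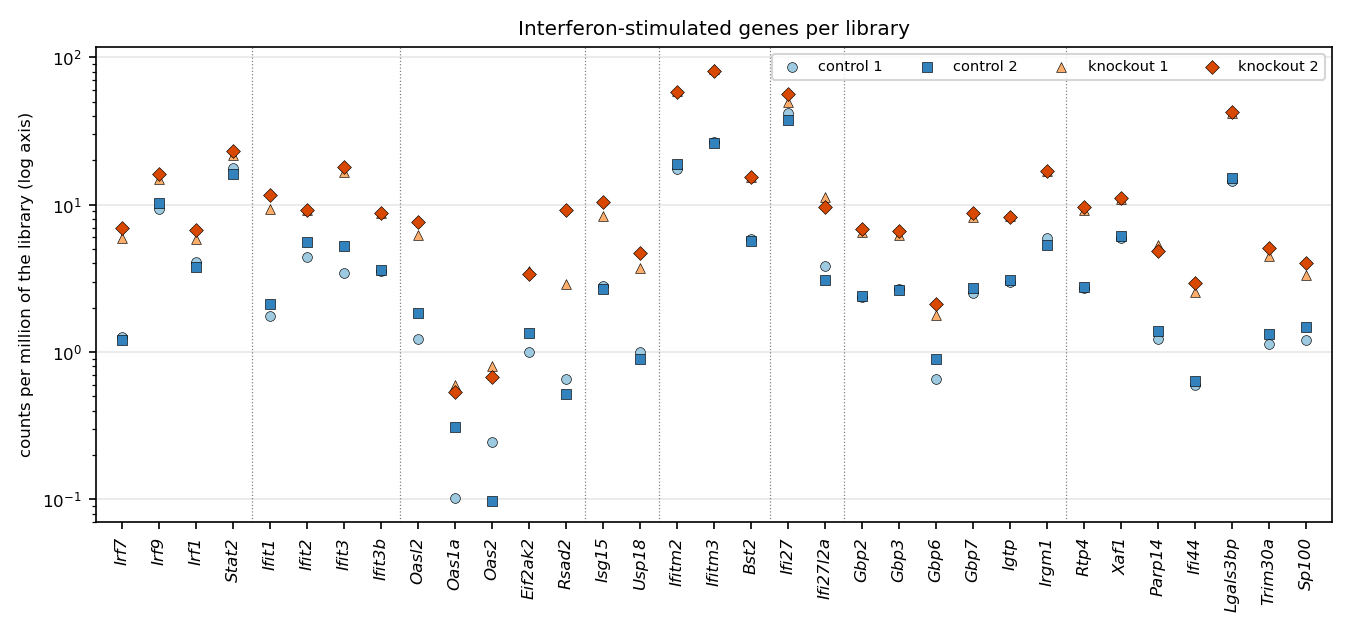
Level of each of the 33 interferon-stimulated genes (x axis, ordered by role, with dotted lines between role groups) in CPM on a log axis, 1 point per library. Both knockout points lie above both control points for every gene, with the widest gap between the knockouts at Rsad2 (2.89 and 9.27 CPM).

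Among the transcription factors, Irf7, the factor that amplifies type I interferon production and is itself strongly induced by interferon, was at 1.27 and 1.20 CPM in controls versus 5.95 and 6.94 CPM in the knockouts, a log2 fold change of 2.39 ± 0.15 (SE, n = 2 and 2; edgeR adjusted p = 7.16e-05). Irf1, a factor induced mainly through GAS elements, was at 4.05 and 3.78 CPM against 5.82 and 6.72 CPM. Irf9, the DNA-binding subunit that joins Stat2, was at 9.29 and 10.3 CPM against 14.9 and 16.3 CPM. Stat2 was at 17.9 and 16.1 CPM against 21.8 and 23.02 CPM (log2 fold change 0.40 ± 0.08; edgeR adjusted p = 0.00917). Irf7 thus differed by 5.23-fold, while Irf9 and Stat2 differed by 1.58-fold and 1.32-fold.

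The Ifit proteins bind foreign or incompletely capped RNA. Ifit1 was at 1.76 and 2.13 CPM in controls versus 9.42 and 11.6 CPM in the knockouts (log2 fold change 2.43 ± 0.16; edgeR adjusted p = 7.79e-05). Ifit3 was at 3.46 and 5.27 CPM against 16.6 and 17.9 CPM. Ifit2, at 4.42 and 5.57 against 9.20 and 9.25 CPM, differed least of the 4. Ifit3b, at 3.54 and 3.61 against 8.74 and 8.84 CPM, is a near-identical copy of Ifit3, so the split of reads between these copies is uncertain.

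The antiviral enzymes gave few UMIs. Oasl2, a member of the oligoadenylate synthetase family, was at 1.23 and 1.84 CPM in controls versus 6.27 and 7.65 CPM in the knockouts (log2 fold change 2.17 ± 0.20). Eif2ak2, the double-stranded RNA kinase PKR, was at 1.00 and 1.35 CPM against 3.52 and 3.38 CPM. Oas2 was at 0.246 and 0.0976 CPM against 0.798 and 0.676 CPM, on 6 to 52 UMIs per library. Oas1a rested on 5 and 19 UMIs in controls versus 32 and 41 UMIs in the knockouts and had the largest adjusted p of the members (log2 fold change 1.37 ± 0.44; edgeR adjusted p = 0.0423). Its call was lost without control 1 (log2 fold change 0.85), without knockout 1 (1.30) and in DESeq2 (1.42), and its reads may be shared with other Oas1 copies. Rsad2, or viperin, which makes a chain-terminating nucleotide, was at 0.655 and 0.521 CPM in controls versus 2.89 and 9.27 CPM in the knockouts, so that the knockouts differed from each other by more than 3-fold. Its log2 fold change was 3.40 ± 0.57 (edgeR adjusted p = 0.00401), and without knockout 2 it was 2.31.

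Isg15, which is attached to proteins as a tag, was at 2.80 and 2.67 CPM in controls versus 8.33 and 10.4 CPM in the knockouts (log2 fold change 1.78 ± 0.15; edgeR adjusted p = 0.000194). Usp18, which removes Isg15 and dampens signalling at Ifnar2, was at 1.00 and 0.895 CPM against 3.71 and 4.72 CPM. The membrane proteins that block virus entry or release summed to 50.1 and 50.9 CPM in controls versus 158 and 154 CPM in the knockouts. Ifitm3 was at 26.7 and 26.4 CPM in controls versus 83.9 and 80.7 CPM in the knockouts (log2 fold change 1.63 ± 0.07; edgeR adjusted p = 9.75e-06). Ifitm2 was at 17.5 and 18.8 CPM against 59.0 and 58.1 CPM. Bst2, or tetherin, was at 5.90 and 5.66 CPM against 15.5 and 15.4 CPM. In these 3 genes each group's libraries lay close together, and the groups were far apart.

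Ifi27 was at 42.0 and 37.7 CPM in controls versus 49.7 and 56.3 CPM in the knockouts (log2 fold change 0.41 ± 0.09; edgeR adjusted p = 0.0101). Its relative Ifi27l2a was at 3.81 and 3.06 CPM against 11.2 and 9.72 CPM, a 3.06-fold difference. The GTPases, some of which attack the membranes around intracellular pathogens, had similar differences, with log2 fold changes from 1.29 to 1.70. Irgm1 was at 5.98 and 5.29 CPM in controls versus 17.0 CPM in both knockouts. Igtp was at 2.99 and 3.09 against 8.38 and 8.28 CPM. Gbp7 was at 2.50 and 2.73 against 8.22 and 8.84 CPM, which was the largest difference of the group. Gbp2 was at 2.35 and 2.41 against 6.49 and 6.84 CPM. Gbp3 was at 2.66 and 2.62 against 6.23 and 6.63 CPM. Gbp6 was at 0.655 and 0.895 against 1.78 and 2.11 CPM. The Gbp genes are a family of close copies, so reads may be shared among them.

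The last 7 members were also higher in both knockouts. Lgals3bp, a secreted glycoprotein, was at 14.6 and 15.2 CPM in controls versus 41.7 and 42.9 CPM in the knockouts (2.84-fold; edgeR adjusted p = 1.69e-05). Rtp4, a chaperone of G-protein-coupled receptors, was at 2.72 and 2.77 against 9.14 and 9.63 CPM. Parp14, an ADP-ribosyltransferase, was at 1.23 and 1.38 against 5.29 and 4.82 CPM. Each of these 3 differed by 2.84-fold or more. Trim30a, a member of the tripartite-motif family, was at 1.13 and 1.32 against 4.45 and 5.08 CPM. Ifi44 was at 0.594 and 0.635 against 2.56 and 2.92 CPM. Sp100, a protein of nuclear bodies, was at 1.21 and 1.48 against 3.36 and 3.99 CPM. Xaf1 was at 5.98 and 6.17 against 10.9 and 11.1 CPM, the smallest difference of the 7. Thinning every kept spot to 1000 UMIs left 30 members testable, of which 28 were called (Stat2 and Ifit2 were not). With equal numbers of spots per region gene list in every library, all 31 testable members were called. Members with an ISRE match had a median log2 fold change of 1.60 (n = 15) and members without one of 1.504 (n = 11), given as a description.

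The genes that make, sense and restrain interferon were followed in a list of 140 further pathway genes, of which 107 were tested, 69 were higher, 2 were lower and 36 were not called (background 38.4% called in either direction; the median log2 fold change was 0.71). No interferon ligand passed the low-count filter. Of 21 ligand genes, 16, among them Ifnb1, had no UMI in any library, where 3 counts would be 0.0405 to 0.0607 CPM, depending on the library. Ligand UMIs summed to 3 and 5 in controls versus 8 and 4 in the knockouts, and Ifng had 3, 1, 0 and 3 UMIs in control 1, control 2, knockout 1 and knockout 2. An increase of ligand transcripts was therefore not detectable at this depth. Plasmacytoid dendritic markers, a cell type known for interferon production, summed to 7.08 and 8.64 CPM in controls versus 5.03 and 4.98 CPM in the knockouts, and of 3 tested, Siglech was lower, Ly6d was higher and Smim5 was not called. Siglech is also in the homeostatic microglia list, which had a lower sum, so these values do not measure plasmacytoid dendritic cells alone.

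The type I receptor genes did not pass the test: Ifnar1 was at 18.9 and 19.2 CPM in controls versus 18.9 and 17.2 CPM in the knockouts (log2 difference -0.08 ± 0.08), and Ifnar2 at 27.0 and 28.3 against 28.2 and 27.2 CPM (0.00 ± 0.07). For type II interferon, Ifngr1 was higher, at 15.8 and 17.5 against 26.0 and 28.4 CPM (edgeR adjusted p = 0.0011). Ifngr2 was at 38.6 and 41.9 against 36.9 and 38.4 CPM (edgeR adjusted p = 0.307). Il10rb, which serves type III interferon and interleukin 10, was higher at 8.97 and 8.32 against 10.9 and 10.6 CPM. That call was lost without any 1 of control 2, knockout 1 and knockout 2, in the region-matched sums, on spots thinned to 1000 UMIs, with the replicate block and in DESeq2, so 2 of 6 receptors were called and 1 of these rested on the setting. Stat3, which answers interleukin 6 family cytokines, was higher, at 27.9 and 29.0 against 63.2 and 62.1 CPM, and Stat6 and Stat5a were also higher. The call of Stat5a was lost without any 1 library, in the region-matched sums, with the replicate block and in DESeq2, and that of Stat6 on spots thinned to 1000 UMIs. Jak1 was at 95.9 and 105 against 106 and 109 CPM and Tyk2 at 9.09 and 8.69 against 7.18 and 8.04 CPM, with neither called.

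Among 17 tested sensors and adaptors, 11 were higher and none lower. Ifi204, a DNA-binding protein expressed in phagocytes, was at 0.0819 and 0.179 CPM in controls versus 3.86 and 4.02 CPM in the knockouts (log2 fold change 4.84 ± 0.28; edgeR adjusted p = 4.01e-05). Tlr7, an endosomal receptor of single-stranded RNA, was at 1.35 and 1.30 against 7.92 and 8.21 CPM. Zbp1, a sensor of Z-form nucleic acid, was at 0.123 and 0.0976 against 1.63 and 1.44 CPM. Each rose by more than the spread between libraries, from control levels close to the counting floor in Ifi204 and Zbp1. Of 8 tested other interferon regulatory factors and their binding proteins, Irf8, Irf5 and Irf2 were higher and Irf2bp2 was lower. Irf3, the factor that first switches on Ifnb1, was at 21.7 and 20.1 against 17.4 and 18.4 CPM and was not called (log2 difference -0.22 ± 0.08; edgeR adjusted p = 0.0666). Of 17 regulators, 10 were higher and Rnaseh2b was lower. Socs3, a feedback inhibitor of Jak kinases, was at 2.17 and 1.87 against 10.6 and 10.0 CPM, whereas Socs1 was at 2.42 and 2.08 against 1.82 in both knockouts and was not called (edgeR adjusted p = 0.189). Samhd1, which degrades nucleotides, was higher at 7.43 and 8.61 against 13.5 and 13.9 CPM, and Nlrc5, an activator of MHC class I genes, at 0.389 and 0.293 against 1.08 and 1.30 CPM. The calls of Irf2 and Irf2bp2 were lost without knockout 1 or without knockout 2, that of Irf2 also without control 1, and that of Rnaseh2b without knockout 1. All 3 calls were also lost in the region-matched sums and on thinned spots, those of Irf2bp2 and Rnaseh2b without TMM scaling, and that of Irf2bp2 with the replicate block.

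Of 5 tested chemokines, 4 were higher. Cxcl10, which attracts T cells, was at 0.246 and 0.244 CPM in controls versus 3.17 and 21.0 CPM in the knockouts (log2 fold change 5.64 ± 1.05; edgeR adjusted p = 0.00589). Ccl2, which attracts monocytes, was at 0.266 and 0.325 against 1.45 and 10.9 CPM. In both chemokines knockout 2 was far above knockout 1, as in Rsad2. Ccl12 was at 1.13 and 1.37 against 12.2 and 13.2 CPM, with the knockouts close together. Of 45 other tested interferon-induced genes, 35 were higher and none lower, with the smallest p-values in Ly6a (52.3 and 51.3 against 202 CPM in both knockouts), Slfn2 (0.737 and 0.928 against 5.45 and 5.76 CPM) and Ifi207 (0.123 and 0.0976 against 2.19 and 2.48 CPM). Ly6e, also an interferon-induced gene, was at 215 and 223 against 196 and 210 CPM and was not called. All 9 genes of the MHC class I list were called higher (254 and 292 against 620 and 574 CPM summed).

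To see whether the members were spread over the section or gathered in places, their UMIs were summed in each spot of at least 5000 UMIs after every spot was thinned to 5000. The mean sum was 1.05 and 1.01 UMIs per spot in controls versus 2.69 and 2.83 in the knockouts. Spots with no member UMI made up 40.6% and 40.8% of the controls' spots and 14.2% and 14.3% of the knockouts' spots. An even level with counting noise alone would have left 6.80% and 5.88% of the knockout spots at 0. The level was thus raised in most spots and was also uneven. The variance over the mean (Fano factor, 1 for counting noise alone) was 1.74 and 1.72 in controls versus 2.36 and 3.17 in the knockouts.

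The 10% of spots with the most member UMIs held 38.2% and 37.7% of all member UMIs in controls versus 30.6% and 34.0% in the knockouts. In the lower 90% of spots the mean was 0.723 and 0.702 UMIs in controls versus 2.07 and 2.08 in the knockouts, and these spots held 74.0% (knockout 1) and 68.2% (knockout 2) of the difference from the mean control. Spots above 6 UMIs, the higher of the controls' 99th percentiles, made up 0.882% and 0.626% of control spots, 6.57% of the spots of knockout 1 (95% Wilson interval 5.73% to 7.52%) and 8.42% of those of knockout 2 (7.54% to 9.39%). These intervals cover counting error only. The spot with the most member UMIs held 25 in knockout 1 and 33 in knockout 2, against 15 and 17 in the controls. Most of the difference was therefore in the bulk of the spots. The share above a fixed limit and the Fano factor also rise with the mean alone. Relative to the mean, the spread beyond counting noise (square root of variance minus mean, over the mean) was 0.84 in both controls, 0.71 in knockout 1 and 0.87 in knockout 2, so it was not higher in both knockouts. In the knockouts it was 0.67 and 0.71 for reactive astrocyte transcripts, 0.49 and 0.65 for MHC class I transcripts, 0.65 and 1.00 for endothelial transcripts, 0.83 and 0.93 for phagocyte transcripts and 1.85 and 3.20 for activated phagocyte transcripts. The members thus lay within the range of these lists.

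**Figure D2:**
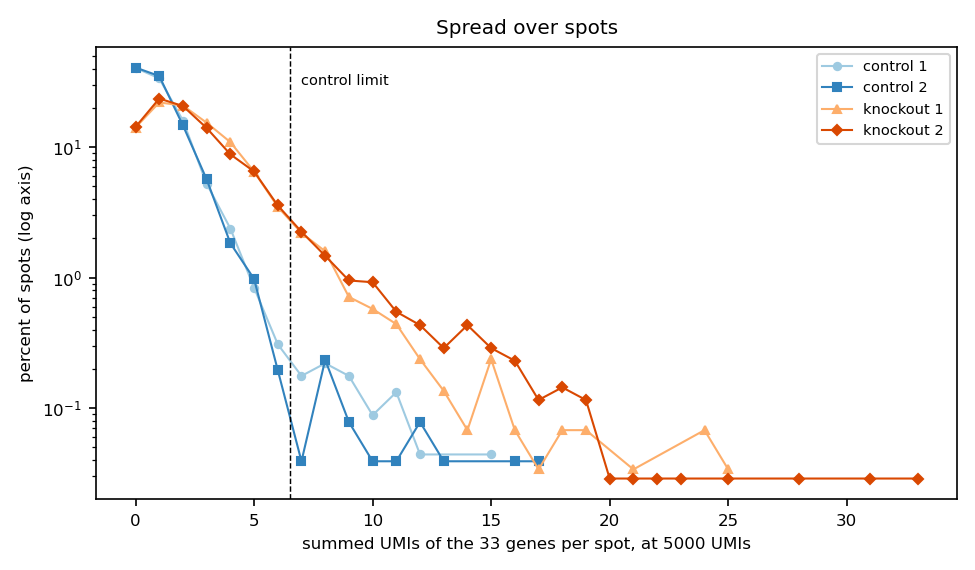
Percent of spots (log axis) that hold each summed UMI count of the 33 genes at 5000 UMIs per spot, 1 line per library; the dashed line marks the limit of 6 UMIs from the controls. The knockout lines are shifted to the right as a whole and reach 25 and 33 UMIs, against 15 and 17 in the controls.

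For single members, the Fano factor over spots lay from 0.9 to 1.5 in both knockouts for 30 of the 33 genes. At few UMIs per spot it stays near 1 even for an uneven gene, so it does not show that single members were even. Ifit1 in knockout 2, for instance, averaged 0.069 UMIs per spot with a Fano factor of 1.35. Ifitm3 was above 1.5 in both (1.64 in each) and had a UMI in 34.4% and 32.9% of spots, against 12.4% and 12.98% in the controls. Rsad2 had the largest Fano factor of the members in knockout 2, at 2.11 with 198 UMIs in 137 of 3468 spots. In knockout 1 it was 1.25, with 52 UMIs in 45 of 2952 spots. The chemokine Cxcl10, no member, had larger Fano factors, of 2.65 in knockout 1 (38 spots with a UMI) and 7.33 in knockout 2 (164 spots). Rsad2 and Cxcl10 shared spots: 35.8% of the Rsad2 spots of knockout 2 held Cxcl10 and 29.9% of its Cxcl10 spots held Rsad2, on 49 shared spots. In knockout 1 the shares were 11.1% and 13.2%, on only 5 shared spots. Of all spots, 1.29% in knockout 1 and 4.73% in knockout 2 held Cxcl10. The overlap was not tested. Rsad2 spots also held more of the other 32 members, with a mean of 5.36 UMIs against 2.63 in the other spots of knockout 1 and 6.65 against 2.62 in knockout 2. Spots with Cxcl10 held 8.29 against 2.62 member UMIs in knockout 1 and 6.21 against 2.67 in knockout 2.

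The tissue the members went with was asked first by splitting each library's spots at the top 10% for the share of UMIs from a marker list. A list's name does not show which cells of a spot held its transcripts, and this was not tested. In the knockouts, members were higher in spots rich in reactive astrocyte transcripts (32 of 33 called, none lower, median log2 difference 1.63), in phagocyte-rich spots (29 of 33, median 1.36) and in vessel-rich spots (25 of 33, median 0.98), by edgeR with the library as a block. The background was 18.5%, 16.6% and 12.5% of all genes called higher. Each of these fits rests on the 2 knockout libraries, each split into rich spots and the rest, with few residual degrees of freedom. The calls thus describe these sections. In leptomeninges-rich spots 20 of 33 were called (background 10.8%, median 0.78), and this count fell to 4 of 33 when classes and sums were taken on thinned spots (background 4.53%). The vessel count fell to 16 of 31 tested under the same change (background 7.94%), whereas 29 of 32 and 27 of 31 members were called in the astrocyte-reaction and phagocyte classes (backgrounds 15.2% and 10.6%). Marker-rich spots were shallower than the rest, with medians of 8775 against 14663 UMIs (knockout 1) and 10659 against 17885 UMIs (knockout 2) in the astrocyte-reaction class. In the controls, 27 of 31, 16 of 31, 26 of 32 and 24 of 31 tested members were called higher in the astrocyte-reaction, phagocyte, vessel and leptomeninges classes, with backgrounds of 20.3%, 14.8%, 12.3% and 11.8%. The control median log2 differences were 1.56, 0.84, 1.39 and 1.13 in the same order. Those of the vessel and leptomeninges classes were larger than in the knockouts, and that of the astrocyte-reaction class was close to the knockouts' 1.63. Higher levels in these classes were thus not particular to the knockouts.

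Astrocyte-reaction-rich spots held 5.25 member UMIs against 2.41 in the other spots of knockout 1 and 6.37 against 2.44 in knockout 2. The largest difference was in Rsad2, at 6.55 against 2.61 CPM in knockout 1 and 54.2 against 6.36 CPM in knockout 2. Trim30a followed at 12.8 against 3.68 CPM and 18.3 against 4.33 CPM, then Ifi44 at 7.53 against 2.20 and 10.5 against 2.51 CPM. The smallest were in Ifi27 (log2 difference 0.69 ± 0.09), Stat2 (0.69 ± 0.16) and Irf1 (1.02 ± 0.21), all called, and Oas2 was not called. For 27 of the 33 genes this class gave the largest of the 4 differences, as a description.

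Phagocyte-rich spots held 5.13 member UMIs against 2.42 in knockout 1 and 5.66 against 2.52 in knockout 2. Ifi44, Ifi27l2a and Trim30a differed most. Ifi27l2a was at 27.3 against 9.60 CPM in knockout 1 and 36.4 against 7.93 CPM in knockout 2 (log2 difference 1.97 ± 0.15). Irf1 (0.41 ± 0.21), Oas1a, Oas2 and Eif2ak2 were not called, and Stat2 (0.47 ± 0.11) and Ifi27 (0.66 ± 0.07) differed least among those called and above 5 CPM. Irf7, Bst2, Ifi27l2a and Lgals3bp had their largest class difference here.

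Vessel-rich spots held 4.57 member UMIs against 2.48 in knockout 1 and 4.61 against 2.64 in knockout 2. Sp100 led at 8.81 against 2.82 CPM and 13.5 against 3.33 CPM (log2 difference 1.89 ± 0.25). Ifitm3 was at 182 against 73.1 CPM and 211 against 72.4 CPM, and Gbp3 at 13.4 against 5.41 and 16.1 against 5.91 CPM. At the other end, Ifit2, Rsad2 and Stat2 were not called, and Rsad2 was at 4.25 against 2.76 CPM in knockout 1 and 8.07 against 9.26 CPM in knockout 2. Rsad2 was thus the member with the largest difference in the astrocyte-reaction class and one of the smallest in the vessel class. In leptomeninges-rich spots Ifitm3, Gbp2 and Ifitm2 differed most among members above 5 CPM, Oas1a and Oas2 had larger log2 differences on few UMIs (1.79 ± 0.63 and 1.77 ± 0.58), and the Ifit genes, Irf9, Stat2, Oasl2, Eif2ak2, Rsad2, Usp18, Gbp6, Rtp4 and Ifi44 were not called.

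**Figure D3:**
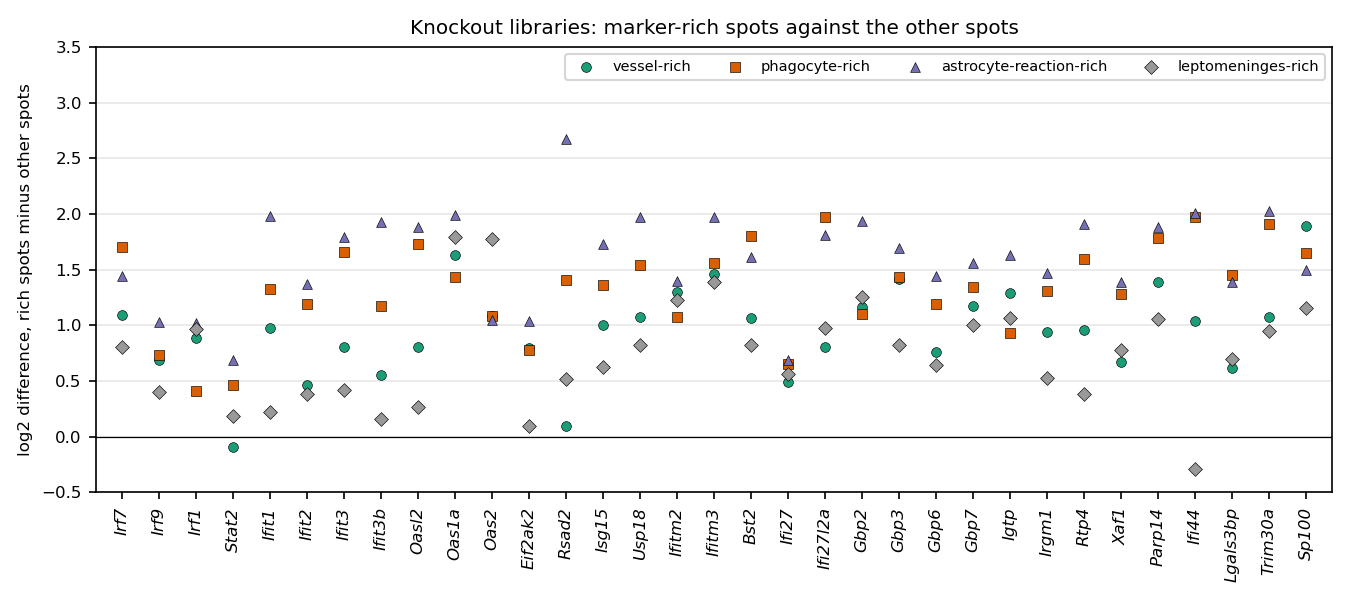
Log2 difference of each member (x axis) between marker-rich spots and the other spots of the knockout libraries, 1 point per spot class. The astrocyte-reaction class lies highest for 27 of the 33 genes and the leptomeninges or vessel class lies lowest for many, with Rsad2 ranging from 0.10 in the vessel class to 2.67 in the astrocyte-reaction class.

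Whether the knockout change of a member differed between vessel-rich spots and the rest was tested as an interaction in edgeR, since the deletion is in endothelial cells. No member was called (0 of 33, background 0.296%), and 5 had an unadjusted p under 0.05: Ifitm3, Oasl2, Ifit3, Ifi27l2a and Ifit1. In all 5 the knockout change was smaller in vessel-rich spots, with a log2 difference of -0.55 ± 0.12 for Ifitm3 (edgeR adjusted p = 0.137), and the median over the 33 genes was -0.26. Without control 2, without knockout 1 or without knockout 2, 1 member was called in each case. With all 4 libraries, a larger knockout change in the vessel-rich class was thus not detected for any member. That class also holds spots rich in phagocyte or astrocyte-reaction transcripts. In spots rich in the vessel list only, the ratio of knockout to control means of the summed members was 3.33. In spots rich in none of these lists it was 2.53. That difference goes the other way from the median above and was not tested.

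The classes overlap, so spots were also sorted by how many of the 3 lists (vessel, phagocyte, astrocyte reaction) they were rich in. Spots rich in none held 0.859 and 0.847 member UMIs in controls versus 2.13 and 2.19 in the knockouts, a ratio of 2.53 between the group means. They made up 2277 of 2952 and 2686 of 3468 knockout spots, and this is a measurement of spots low in all 3 lists, not of tissue without those cells. Spots rich in 1 list held 3.70 and 3.49 UMIs (vessel), 4.02 and 4.33 (phagocyte) and 4.34 and 5.45 (astrocyte reaction) in the knockouts. Spots rich in any 2 held 6 and 6.60 and those rich in all 3 held 7.12 and 8.55 UMIs, on 24 and 29 spots. The level rose with each further list in both knockouts, and in the controls spots rich in all 3 also had the highest mean, at 3.36 and 4.13 UMIs. The ratio of the group means was 4.21 in phagocyte-only spots, 3.33 in vessel-only spots, 2.71 in astrocyte-reaction-only spots and 2.09 in spots rich in all 3. With 2 libraries a group, the smallest two-sided p of an exact permutation test is 0.33, and these ratios were not tested.

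**Figure D4:**
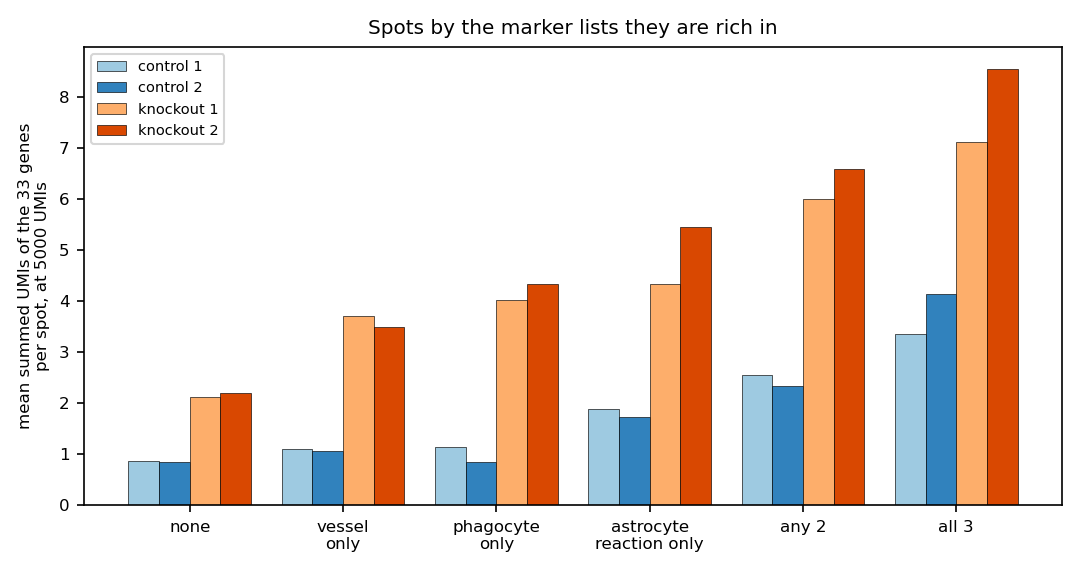
Mean summed UMIs of the 33 genes per spot at 5000 UMIs (bars, 1 per library) in spots sorted by the marker lists they are rich in. Knockout bars are higher than control bars in each class and climb from 2.13 and 2.19 in spots rich in no list to 7.12 and 8.55 in spots rich in all 3.

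Over single spots of the knockouts, the summed member UMIs went most with reactive astrocyte transcripts (Pearson r = 0.47 in knockout 1 and 0.50 in knockout 2, over 2952 and 3468 spots), MHC class I transcripts (0.35 and 0.41), phagocyte transcripts (0.39 in both) and Cxcl10 (0.28 and 0.40), and less with endothelial transcripts (0.25 in both) and leptomeninges transcripts (0.18 and 0.24). In the controls the order differed: leptomeninges transcripts had 0.46 and 0.50, mural transcripts 0.40 and 0.41 and phagocyte transcripts 0.15 and 0.12. Members also went with reactive astrocyte transcripts in the controls. Astrocyte-reaction-rich spots held 2.43 against 0.899 member UMIs in control 1 and 2.29 against 0.872 in control 2. In the knockouts, lymphocyte transcripts had 0.04 and 0.10, neutrophil transcripts 0.06 and 0.04, oligodendrocyte transcripts -0.04 and -0.02 and inhibitory neuron transcripts -0.17 and -0.15. Spots of a section share its library and neighbours, and the member sum also went with lower depth before thinning (-0.26 and -0.19), so these values describe the sections and carry no test. Which cells held the transcripts of each list was not tested either. Between role groups of members, r was 0.25 and 0.24 for the Ifit, Oas and Isg15 genes with the membrane and Ifi27 genes. It was 0.19 and 0.30 for the Ifit, Oas and Isg15 genes with the GTPases. The GTPases averaged 0.29 UMIs per spot in both knockouts, with Fano factors of 1.15 and 1.27. Counting noise at such levels keeps r low, so these values do not show how closely the groups went together.

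Seen from the other side, the 10% of knockout spots with the most member UMIs (a mean of 8.22 and 9.64 against 2.07 and 2.08 in the rest) were compared with the rest for all other genes. Of 14384 genes tested, 1498 were higher (10.4%) and 1069 lower (7.43%) by edgeR with the library as a block. This fit also rests on the 2 knockout libraries with few residual degrees of freedom. The largest rises were in chemokines: Cxcl10 was at 26.4 against 1.66 CPM in knockout 1 and 156 against 8.07 CPM in knockout 2, and Ccl2 at 4.75 against 0.979 and 88.8 against 4.42 CPM. Cxcl2 and Cxcl1, which attract neutrophils, were at 23.1 against 1.15 CPM and 23.6 against 2.18 CPM in knockout 2 but at 1.36 against 0.527 CPM and 1.36 against 0.903 CPM in knockout 1. The Ccl2, Cxcl1 and Cxcl2 values thus differed far more in knockout 2 than in knockout 1. Saa3, an acute-phase protein, was at 12.9 against 2.86 CPM and 35.2 against 4.04 CPM. Ifi204, Iigp1 and Gbp2b, interferon-induced genes outside the 33, rose with log2 differences of 2.45 ± 0.32, 2.40 ± 0.33 and 2.28 ± 0.38, and Ly6d, Slc13a4, Itih2 and Serpina3m completed the 12 largest rises.

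By list, member-rich spots had higher levels of 16 of 16 phagocyte, 18 of 22 reactive astrocyte, 13 of 14 endothelial, 12 of 12 leptomeninges, 9 of 9 MHC class I and 6 of 7 complement genes, with median log2 differences of 1.21, 1.19, 0.94, 1.63, 1.01 and 1.42. Of 5 tested lymphocyte markers 1 was higher, as was 1 of 5 neutrophil markers. Inhibitory neuron markers went the other way, with 0 of 8 higher and 6 lower, whereas of 8 excitatory neuron markers 4 were higher and 1 lower (median log2 difference 0.27). The 6 largest falls were in neuronal genes of deep or ventral structures, namely Slc10a4, the dopamine transporter Slc6a3 (12.2 against 67.1 CPM and 10.95 against 72.5 CPM), the peptide Cartpt, the dopamine-synthesis enzyme Th, Ucn and Shox2. Member-rich spots thus held less RNA of these neuronal genes. Their median depth before thinning was 9444 against 14528 UMIs in knockout 1 and 12659 against 17452 in knockout 2.

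That leads to the regions. Spots were assigned to the 1 of 7 region gene lists with the highest score, which names the leading genes of a spot and not an anatomical outline. In the controls the members were lowest in cortex-list spots, at 0.735 and 0.844 UMIs per spot, and highest in hypothalamus-list spots, at 1.44 and 1.41. In the knockouts the cortex-list spots were highest, at 3.35 and 3.43 UMIs. Hypothalamus-list spots were at 2.09 and 2.43 and midbrain and hindbrain spots at 2.20 and 2.07, the 2 lowest of the 7 in each knockout. Between these, hippocampus-list spots were at 2.57 and 2.73, striatum at 2.64 and 2.75, thalamus at 2.75 and 2.76 and white matter at 2.70 and 3.01. The ratio of knockout to control means was 4.29 in cortex-list spots, 2.80 in striatum, 2.75 in hippocampus, 2.68 in white matter, 2.28 in thalamus, 2.05 in midbrain and hindbrain and 1.58 in hypothalamus.

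**Figure D5:**
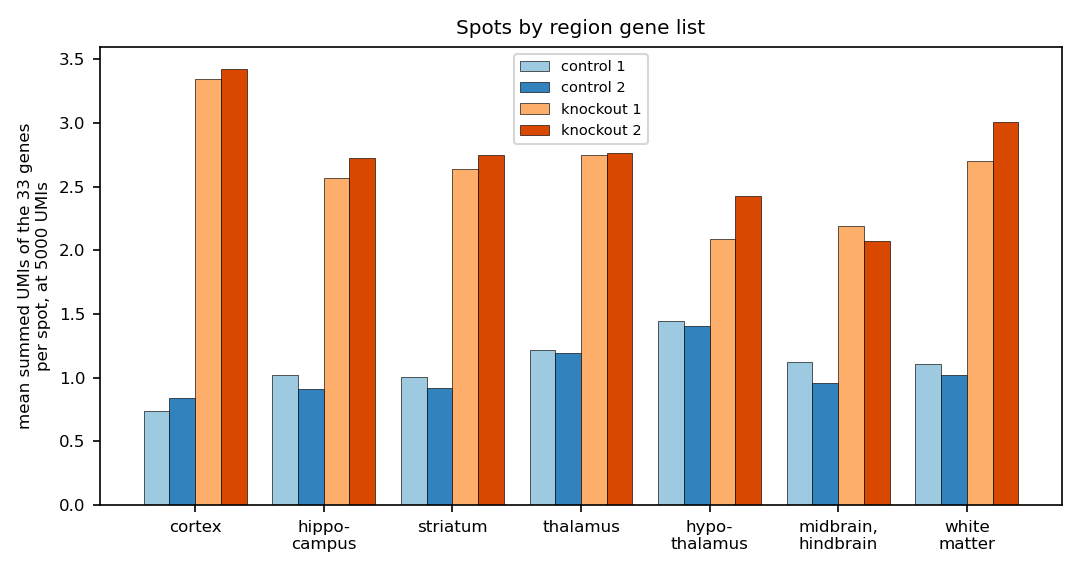
Mean summed UMIs of the 33 genes per spot at 5000 UMIs (bars, 1 per library) in spots assigned to 7 region gene lists. Cortex-list spots have the lowest bars in the controls (0.735 and 0.844) and the highest in the knockouts (3.35 and 3.43), and hypothalamus-list spots differ least between the groups.

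Tested within each list by edgeR, all 31 testable members were higher in knockout cortex-list spots (background 19.4%, median log2 fold change 2.47), 29 of 30 in hippocampus (16.3%), 27 of 30 in striatum (15.2%), 27 of 31 in thalamus (13.9%) and 29 of 30 in white matter (16.4%). In hypothalamus-list spots 10 of 29 were called (background 10.2%, median 0.57) and in midbrain and hindbrain spots 11 of 30 (background 5.74%, median 1.03), with none lower in any list. Control spots numbered 408 and 385 in the cortex list, 230 and 211 in striatum, 190 and 248 in thalamus, 174 and 186 in hypothalamus and 120 and 121 in midbrain and hindbrain. The difference between lists was tested as a genotype by region interaction with the library as a block, and 19 of 31 members were called, with a background of 27.4% of 15369 genes. Leaving out control 1 left 10 of 33 called (background 17.8%), and thinned spots left 9 of 27 (background 13.5%).

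Ifitm3 showed the regional difference most clearly. In cortex-list spots it was at 14.9 and 19.5 CPM in controls versus 109 CPM in both knockouts, and in hypothalamus-list spots at 40.6 and 48.7 against 54.8 and 63.1 CPM (interaction adjusted p = 5.95e-09 in edgeR). Lgals3bp was at 10.3 and 9.53 against 50.7 and 50.8 CPM in cortex-list spots and at 29.3 and 21.7 against 33.2 and 40.3 CPM in hypothalamus-list spots. Ifi27l2a was at 2.32 and 1.64 against 15.5 and 12.96 CPM in cortex-list spots, whereas in hypothalamus-list spots it was at 11.3 and 9.06 in controls versus 8.14 and 6.41 CPM in the knockouts, a difference that was not called. In these 3 genes the controls were several times higher in hypothalamus-list than in cortex-list spots, and of these 2 lists the groups lay farther apart in the cortex list. Irf7 and Ifit1 were called in both lists: Irf7 was at 0.909 and 0.923 against 7.22 and 8.61 CPM in cortex-list spots and 2.26 CPM in both controls against 4.72 and 5.80 CPM in hypothalamus-list spots. Their log2 fold changes were still larger in cortex-list spots, at 3.04 (Irf7) and 2.91 (Ifit1) against 1.16 and 1.38 in hypothalamus-list spots. Both were called in the interaction test over the 7 lists (edgeR adjusted p = 0.00764 and 0.0425). Region assignment rests on genes that can themselves change, and the share of white-matter-list spots was 35.6% and 42.2% in controls versus 17.0% and 14.8% in the knockouts. The part of section plane in the regional values was not tested.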

How the data were processed

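Per the matrix headers, the deposited files are 10x matrices of whole-number UMI counts per gene and spot, written by Cell Ranger 4 software. Per the submitters' processing notes, the tools were Space Ranger and the build was mm10; the Space Ranger version is not given in the sources used here. Gene symbols are those of the deposited feature files. Spots of at least 1000 UMIs were summed per library and tested with edgeR 4.0.16 (filterByExpr, TMM, quasi-likelihood F-test, Benjamini-Hochberg over all genes tested, threshold 0.05) in R 4.3.3, with DESeq2 1.42.0 as an alternative. Fold changes are log2. The same edgeR test was run on sums per library and spot class, or per library and region list, with genes of the class's own list left out of the calls. Spots of at least 5000 UMIs were thinned at random to 5000 UMIs for spot sums, so that depth does not set the shares. No tissue call, doublet caller or image was used.

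The whole-section fit and the genotype by region fit were tested on simulated data, with results not given here. For the other fits no such test is reported here. The 33 genes, the pathway and marker lists and the region tests were chosen with earlier results of these data known. All members are named, with pathway genes named by a fixed set plus up to 3 with the smallest p per role, class genes by the 3 largest and 3 smallest differences above 5 CPM, and genes of member-rich spots by the 12 largest rises and 6 largest falls above 5 CPM that went the same way in both knockouts. Library pairs with the same number did not deviate together (r = -0.12), so the main fits have no replicate block. Pathway symbols absent from the feature files were not analysed here. A further gene of the pathway list is not reported here.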

Additional observations from a re-analysis of the deposited data

Results flagged for a closer look

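The knockout change differed between region gene lists for 19 of 31 tested members in edgeR's interaction test with Benjamini-Hochberg adjustment, a test added after the data had been seen. The smallest adjusted p-values were 5.95e-09 for Ifitm3, 1.83e-08 for Lgals3bp and 2.07e-08 for Ifi27l2a. Of all 15369 genes tested, 27.4% passed the same test, and the section plane was not analysed here.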

How the results depend on the processing

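All 33 members kept their direction under every alternative in which they were tested. The count of members called was 32 to 33 when 1 library was left out, 33 with the replicate block and 32 in DESeq2, and that of pathway genes was 71, with 57 to 74 when 1 library was left out, 67 with the replicate block, 60 in DESeq2 and 39 of 76 on spots thinned to 1000 UMIs. Pairing control 1 with knockout 2 instead, which was added after the data had been seen, gave 33 members and 78 pathway genes. The spot shares and Fano factors moved with the unit. On 2500 UMIs per spot the shares above the control limit were 3.46% and 5.19% (knockout 1 and 2) and the Fano factors 1.62 and 2.10. The shares were 5.32% and 7.47% without the 3 members with the most UMIs, 7.89% and 9.63% without the GTPases, and 27.5% and 27.3% against the controls' 95th percentile, and 10.5% in knockout 2 on spots of at least 10000 UMIs. Vessel-rich spots gave 16 members on thinned spots in place of 25. Leptomeninges-rich spots gave 12 (top 20% of spots) and 4 (thinned spots) in place of 20. The genotype by vessel class test gave 0 to 1 members when 1 library was left out, and the region test 10 to 15 and 9 on thinned spots, in place of 19. Member-rich spots drawn as the top 5% gave 835 higher genes in place of 1498. Of 82 alternatives for counts, shares and Fano factors, 21 moved, taken as a count more than 1.5 times off, a share outside its 95% Wilson interval or a Fano factor off by more than the SD of the knockouts. Of 1907 alternatives for single genes, 83 lost a call and 33 gained one. Where a gene was called in the main fit or the alternative, 0 changed sign. Sign changes of genes called in neither were not counted. Leaving out 1 knockout leaves no residual degrees of freedom in the class comparisons within knockouts, so these were not refitted that way. Depth limits Oas1a, Oas2 and the interferon ligands most.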
